A study of Mus musculus with 5 samples.

Results

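Chemokine ligands are small secreted proteins that guide the movement of leukocytes and of some other cells. Their genes were followed across the cell classes of the mouse mammary gland. The members were all genes of the deposited tables whose symbol is a Ccl or Cxcl number, Cx3cl1, Xcl1 or Ppbp, without Cxcl9 and Cxcl10, which gave 43 gene rows with 37 distinct symbols among 32285 genes. Whole mammary gland was profiled by droplet single-cell RNA sequencing, 1 library per mouse. Of the 5 libraries, 3 are labelled Frmd3 knockout (KO1, KO2 and KO3) and 2 are labelled wild type (WT1 and WT2). FRMD3 is a protein with a FERM domain, a fold that ties membrane proteins to the cytoskeleton, and the title of the series ties it to Notch signaling and to how mammary epithelial cells choose a fate. The labels name no treatment, age or strain, and leave out which stretch of Frmd3 was deleted and in which cells.

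Chemokines fold around paired cysteines, and the spacing of the first of these gives the families their names: CC, CXC, CX3C and XC. They are held on the sugar chains of cell surfaces and matrix and act through receptors with several membrane passes, which couple to G proteins. Inflammatory chemokines are induced in many cell types when tissue is disturbed, while homeostatic ones are made steadily and place lymphocytes, dendritic cells and progenitors. In the mammary gland, macrophages and eosinophils drawn in by chemokines are known to take part in the growth of ducts.

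The 5 libraries held 32472 cell barcodes and 308558851 unique molecular identifiers (UMIs), each of which stands for 1 captured transcript. A cell was used if it had 500 genes or more and no more than 15% of its UMIs from mitochondrial genes and was no predicted doublet, which left 26834 cells, between 2218 and 9450 per library, and their median depth ran from 4000 UMIs in KO1 to 12601 in KO2. The same 10x barcode occurred in 3 to 22 cells of any pair of libraries. Frmd3 itself gave 1.81, 3.23 and 1.80 CPM (UMIs of the gene per 1000000 UMIs) in KO1, KO2 and KO3 against 1.36 in WT1 and 2.41 in WT2, so its RNA was not lower in the knockout-labelled libraries. The kit counts the 3′ ends of transcripts, which need not lie in the deleted part, and the genotypes are therefore given as labelled throughout. KO3 stood apart by its heat shock genes: the summed level of 10 of them over all cells was 13296 CPM there and 4146 to 4720 CPM in the other libraries. Each of the 3 epithelial classes was found by its markers in every library, with 3725 hormone-sensing luminal-like, 2268 luminal progenitor-like and 398 basal/myoepithelial-like cells. Of 36 clusters, 5 stayed unnamed. They had fewer than 3 markers of a list detected, or a marker level over 4-fold below the highest cluster of their best class. These clusters held 4505 cells, 3972 of them from KO1, mostly in a cluster led by Wfdc17 and Cd209f that carries macrophage and other markers. That cluster best matched the macrophage list, with 9 of its markers detected. The 4-fold limit that left it unnamed was set after seeing the data.

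Levels below are CPM of all UMIs of a class in 1 library, listed from KO1 to KO3 and then WT1 and WT2 wherever 5 values stand together. They are not divided by gene length, so levels were compared between classes and libraries for 1 gene at a time. Libraries with fewer than 20 cells of a class were not used for it, which removed KO3 for monocyte-like, neutrophil-like and B cell-like cells. In the libraries used, the UMIs summed per class ran from 68855 for neutrophil-like cells to 37276832 for fibroblast-like cells. The clusters behind the classes were made without the chemokine ligand and receptor genes, and the differences between classes are described without a test.

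Chemokine RNA was found in every class, and fibroblast-like and macrophage-like cells held most of it. The members summed to 1022913 UMIs. Fibroblast-like cells held 35.4%, 64.1%, 36.0%, 33.5% and 43.1% of them in the 5 libraries. Macrophage-like cells held 24.2%, 9.29%, 33.8%, 34.6% and 18.4%, although they numbered only 1766 against 9055 fibroblast-like cells. Per cell class the order turned round: the members made up 14679 to 37136 CPM of the macrophage-like RNA and 2429 to 7107 CPM of the fibroblast-like RNA, with no overlap between these ranges. The share of natural killer (NK)/innate lymphoid-like cells varied with the library, from 2.13% in KO1 to 23.9% in WT2, as did their number, 67, 216, 71, 173 and 688 cells. In KO1 the unnamed cluster led by Wfdc17 and Cd209f held 25.6% of the member UMIs, more than the macrophage-like cells of that library.

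Of the 43 rows, 33 had UMIs in the cells used and 30 had at least 50. Ccl20, Ppbp and Ccl28 stayed under that limit with 45, 40 and 40 UMIs, and 10 rows had none in any barcode: Ccl26, Ccl27b and copies of Ccl19, Ccl21a, Ccl21b, Ccl21c and Ccl27a. The copies are nearly identical, and how reads that match several of them were counted is not given in the sources used here, so the values of Ccl19, Ccl21a and Ccl27a are uncertain. Among the 30 members, 29 had a class with the highest median over libraries: macrophage-like for 10, fibroblast-like, NK/innate lymphoid-like and dendritic cell-like for 3 each, and hormone-sensing luminal-like and basal/myoepithelial-like for 2 each. For 15 of the 29 the same class was highest in all 5 libraries, and for 12 every library of the highest class lay above every library of the second. The highest median was at least 2 times the second for 20 members and at least 5 times for 9.

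**Figure D1:**
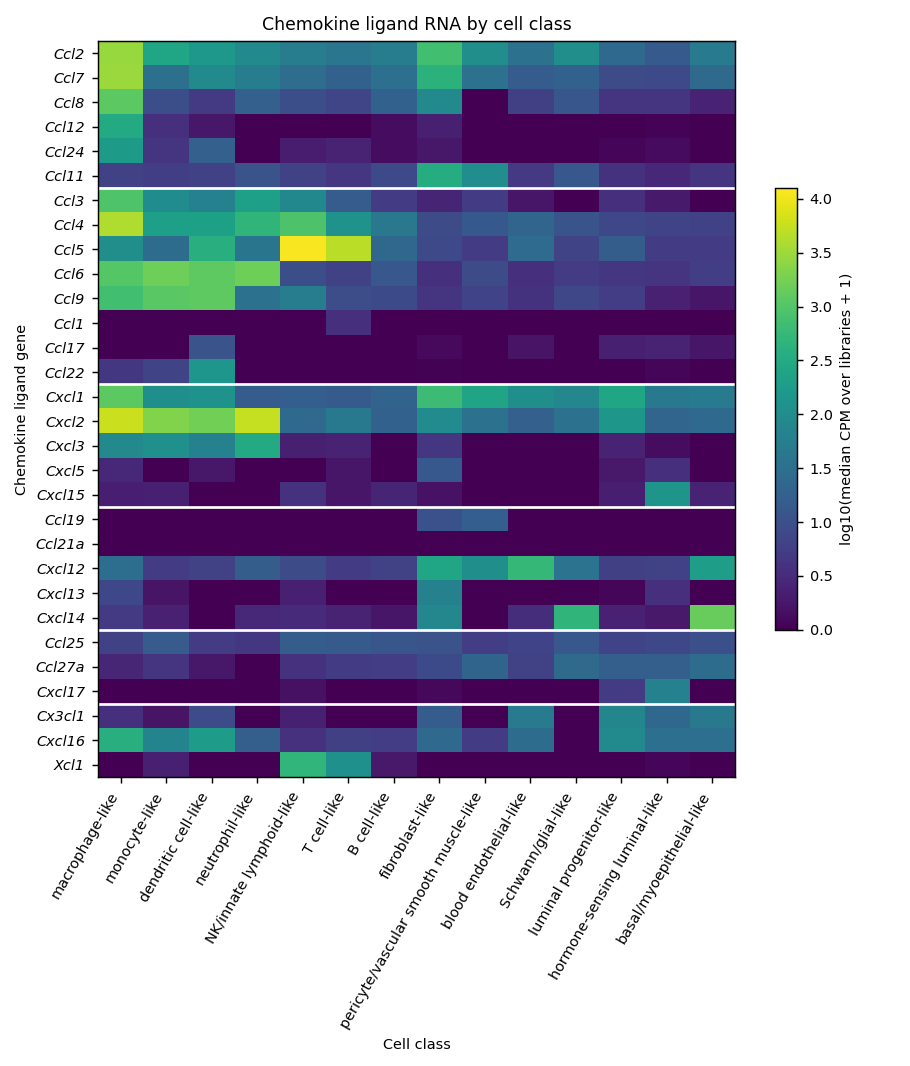
Median CPM over libraries (log10 of CPM + 1, color) of the 30 chemokine ligand genes with at least 50 UMIs (rows, in groups by role) in 14 marker-named cell classes (columns). Ccl2, Ccl7 and Ccl8 are brightest in macrophage-like cells, Ccl5 in NK/innate lymphoid-like cells, Cxcl15 and Cxcl17 in hormone-sensing luminal-like cells and Cxcl14 in basal/myoepithelial-like cells, while Ccl25 differs little between columns.

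The ligands of Ccr2 and Ccr3, which draw monocytes and eosinophils, were shared out between macrophage-like and fibroblast-like cells. Ccl2, the main attractant of monocytes, lies on chromosome 11 from 82035571 to 82037453 (mm10, plus strand), close to Ccl7, Ccl11, Ccl12 and Ccl8. Macrophage-like cells held 2913, 3391, 824, 2521 and 4338 CPM of it. Fibroblast-like cells held 588, 3595, 595, 725 and 1551 CPM, lower than the macrophage-like cells in every library but KO2, and 81.4% of all Ccl2 UMIs because there were so many of them. KO3 was the low library among macrophage-like cells and KO2 the high one among fibroblast-like cells, so the spread within a genotype label was several-fold. Ccl7, a ligand of Ccr2 and Ccr3, gave 3051, 2745, 1218, 3209 and 3889.9 CPM in macrophage-like cells and 253 to 1065 CPM in fibroblast-like cells. Ccl8, known in the mouse as a ligand of Ccr8, gave 1182, 806, 1029, 1780.4 and 1258 CPM in macrophage-like cells and 61.1 to 116 CPM in fibroblast-like cells. For both genes the 2 classes did not overlap. Mast cell/basophil-like cells numbered at least 20 only in KO3, where their 28 cells held 1867 CPM of Ccl7, and were left out of the order of classes.

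Ccl12 and Ccl24 were restricted further. Ccl12, a mouse ligand of Ccr2, gave 215, 320.3, 115, 326 and 345 CPM in macrophage-like cells, and no other named class reached a median of 3 CPM. Ccl24, an eosinophil attractant made by tissue macrophages, gave 279, 159, 229.6, 115 and 168 CPM there and a median of 17.1 CPM in dendritic cell-like cells, the next named class. Ccl11, eotaxin, was the exception of the group, with 441, 348, 175, 537 and 299 CPM in fibroblast-like cells, which held 91.6% of its UMIs. Pericyte/vascular smooth muscle-like cells came second for Ccl11 with 8.15 to 789 CPM. Only 24 to 95 cells per library stand behind these pericyte values, and the summed fibroblast markers in them ran from 1063 CPM in WT1 to 5387 CPM in KO2, the library with the highest Ccl11, with 8 to 10 of the 10 markers present in each library. The part of fibroblast RNA in the pericyte values was not tested.

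**Figure D2:**
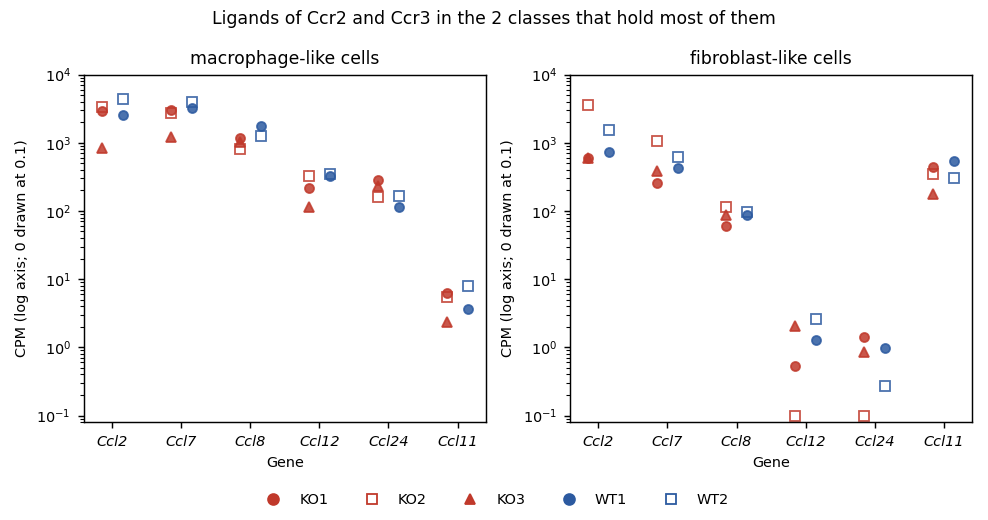
CPM (log axis, 0 drawn at 0.1) of Ccl2, Ccl7, Ccl8, Ccl12, Ccl24 and Ccl11 in macrophage-like cells (left) and fibroblast-like cells (right), 1 point per library. Ccl7, Ccl8, Ccl12 and Ccl24 lie higher on the left in all 5 libraries, Ccl11 lies higher on the right, and Ccl2 overlaps between the panels.

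The 2 larger of the 3 macrophage-like clusters differed in these genes, and the other, 21 cells led by Mki67, is too small to set beside them. The main cluster, led by Mrc1 and F13a1, had 1651 cells and pooled levels of 3104 CPM for Ccl2, 3314 CPM for Ccl7, 1517 CPM for Ccl8 and 299.5 CPM for Ccl12. The small cluster led by Mmp12 and Rgs1 had 94 cells and 55.5, 19.1, 8.19 and 18.2 CPM of the same genes. Cxcl16 went the other way, with 294 CPM in the main cluster and 1145 CPM in the small one, and Ccl3 was alike in both at 1009 and 992 CPM. The small cluster was used in 2 libraries only, in which its Ccl2 ran from 16.6 to 24.9 CPM against 842 to 4978 CPM over the 5 libraries of the main cluster. The unnamed cluster led by Wfdc17 and Cd209f held 683 CPM of Ccl2 and 241 CPM of Ccl8, but also 228 CPM of Ccl11, the gene of the fibroblast-like cells.

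Ccl3 and Ccl4 are inflammatory attractants of monocytes and lymphocytes, and Ccl3 is a ligand of Ccr1. Ccl3 gave 635, 1829, 566, 924 and 1739 CPM in macrophage-like cells, and 145 to 301 CPM in neutrophil-like cells, which came second. Ccl4 gave 3148, 8343, 2231, 4086 and 7638 CPM in macrophage-like cells and 285 to 1305 CPM in NK/innate lymphoid-like cells. In both genes KO2 and WT2 were the high libraries and KO3 the lowest, so the libraries of the 2 labels were mixed in order.

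Ccl5, a product of cytotoxic lymphocytes that binds Ccr1 and Ccr3, was the lymphoid chemokine of the gland. NK/innate lymphoid-like cells held 10733, 20673, 7178, 11619 and 18993 CPM and 74.0% of its UMIs. T cell-like cells followed with 810.4, 4805, 4679, 8852 and 4978 CPM, below the NK/innate lymphoid-like cells in each library. Among T cell-like cells the cluster led by Icos, a gene of activated T cells, and Cd3g had 8230 CPM of Ccl5, pooled over libraries. The cluster led by Lef1 and Il7r, genes of naive and memory cells, had 401 CPM, also pooled. Over libraries these clusters ran from 2554 to 10759 CPM and from 135 to 959 CPM, without overlap.

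Ccl6 and Ccl9 are rodent ligands of Ccr1 made by myeloid cells, and Ccl6 was spread over 4 myeloid classes and Ccl9 over 3. Ccl6 was highest by a narrow margin in monocyte-like cells, with 1540.1, 1256, 1701 and 1632 CPM in KO1, KO2, WT1 and WT2. Neutrophil-like cells had 1341 to 2647 CPM of it and dendritic cell-like cells 238 to 2809.9 CPM, so the order of the first 3 classes lies within their spread. Ccl9 gave 2015, 638, 771, 1649 and 1193 CPM in dendritic cell-like cells and 929 to 1232 CPM in monocyte-like cells, again overlapping. Macrophage-like cells held 807 to 1951 CPM of Ccl6 and 618 to 1509 CPM of Ccl9. Neutrophil-like cells held only 58.8, 0, 72.6 and 7.25 CPM of Ccl9 in KO1, KO2, WT1 and WT2.

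Ccl17 and Ccl22 bind Ccr4 on T cells, and Ccl22 was nearly confined to dendritic cell-like cells. Ccl22 gave 41.1, 31.1, 745, 142 and 149.9 CPM in that class, which held 91.0% of its UMIs, and Ccl17 gave 8.80, 10.4, 94.9, 10.2 and 61.2 CPM, with 48.6% of its UMIs in that class. KO3 was the highest library for both. Of the 499 dendritic cell-like cells, 22 had UMIs for at least 4 of 8 markers of migratory dendritic cells. These 22 held 2919 CPM of Ccl22 against 76.3 CPM in the other 477, and 356 CPM of Ccl17 against 21.5 CPM. KO3 gave 7 of the 22 cells, and without it, a setting chosen after seeing the data, the values were 1791 against 46.3 CPM for Ccl22 and 102 against 23.3 CPM for Ccl17. The same cells held 3819 CPM of Ccl5 against 168 CPM, and less Ccl6 and Cxcl2, at 146 against 1617 CPM and 36.6 against 2215 CPM. All values of this split are pooled over libraries, and 10 cells held 59.2% of all Ccl22 UMIs.

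Ccl1, the ligand of Ccr8, was rare, with 2.61, 0, 2.74, 17.3 and 6.61 CPM in T cell-like cells. More of it lay in an unnamed cluster of 117 cells led by Il5 and Il2ra, which held 53.0% of its UMIs and had 214 CPM in KO1 and 85.3 CPM in WT2, the libraries with at least 20 of these cells. Il5 is the cytokine that keeps eosinophils alive. The 0 UMIs of KO2 were found among 97 T cell-like cells. Ccl20, which draws Ccr6-bearing lymphocytes to mucosal surfaces, had 45 UMIs in 19 cells.

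The 6 genes grouped here as neutrophil attractants and ligands of Cxcr2 form a row on chromosome 5, all on the plus strand. Their order is Cxcl5, Ppbp, Cxcl3, Cxcl15, Cxcl1 and Cxcl2. Gaps between these genes are 6.9, 16.0, 4.9, 88.2 and 10.8 kb (GENCODE mouse release 21). Transcription of Cxcl1, Cxcl2, Cxcl3 and Cxcl5 in inflamed tissue is known to depend on the factor NF-kB. RefSeq promoter windows on GRCm38.p6, the 250 bases before the start, are shown for 4 neighbours because their RNA was found in different classes. Capitals mark matches to GGGA, any base, then TTTCC, a form of the NF-kB motif, and to TATAAA, a form of the TATA box.
Cxcl3, chr5:90785851-90786100: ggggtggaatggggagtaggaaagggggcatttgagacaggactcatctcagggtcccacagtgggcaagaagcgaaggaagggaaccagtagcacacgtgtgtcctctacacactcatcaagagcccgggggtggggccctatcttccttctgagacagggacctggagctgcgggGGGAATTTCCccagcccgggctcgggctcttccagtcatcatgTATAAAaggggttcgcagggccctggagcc
Cxcl15, chr5:90794284-90794533: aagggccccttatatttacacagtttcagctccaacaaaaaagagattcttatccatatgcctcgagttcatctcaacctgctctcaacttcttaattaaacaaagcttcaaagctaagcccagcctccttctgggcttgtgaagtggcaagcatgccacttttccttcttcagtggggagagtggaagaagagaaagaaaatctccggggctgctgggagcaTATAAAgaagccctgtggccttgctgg
Cxcl1, chr5:90890995-90891244: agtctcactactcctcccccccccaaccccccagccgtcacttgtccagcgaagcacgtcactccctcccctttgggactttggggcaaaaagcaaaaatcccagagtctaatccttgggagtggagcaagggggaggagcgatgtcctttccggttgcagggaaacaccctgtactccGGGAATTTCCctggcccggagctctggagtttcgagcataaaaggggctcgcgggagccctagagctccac
Cxcl2, chr5:90903649-90903898: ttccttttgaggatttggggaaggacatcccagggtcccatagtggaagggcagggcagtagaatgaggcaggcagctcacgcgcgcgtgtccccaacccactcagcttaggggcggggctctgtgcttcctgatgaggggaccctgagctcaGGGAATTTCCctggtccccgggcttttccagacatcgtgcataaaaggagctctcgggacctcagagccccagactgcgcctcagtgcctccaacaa

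Cxcl1, Cxcl2 and Cxcl3 carry the letters GGGAATTTCC on the same strand, at 71 to 62, 97 to 88 and 73 to 64 bases before the start. Cxcl15, between Cxcl3 and Cxcl1, has no match to that form in its window but has TATAAA 27 to 22 bases before its start, as Cxcl3 has it at 30 to 25. Both strands were searched. The NF-kB form occurs in 117 of 32851 RefSeq windows of this length, or 0.356%, and TATAAA in 12.4%. Windows exist for 26 of the 37 symbols, and among these only Cxcl1, Cxcl2 and Cxcl3 hold the NF-kB form. A wider form, GGG, any 2 bases, then TTTCC, which includes the first, occurs in 1.41% of windows and among the members also in Ccl20 and Ccl9. TGANTCA, a form of the AP-1 motif, occurs in 6.75% of windows and in those of Ccl27a, Ccl27b, Ccl9 and Ppbp. A match is a string of letters, and no binding was measured.

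Cxcl2 was spread over macrophage-like, neutrophil-like, monocyte-like and dendritic cell-like cells. It gave 5747, 7936, 6009, 4322 and 13546 CPM in macrophage-like cells, 3198 to 8794 CPM in neutrophil-like cells and 508 to 5364 CPM in monocyte-like cells, with overlap between all of these classes. Dendritic cell-like cells held 2701, 238, 1677, 1564 and 2879 CPM. Cxcl3 was highest in neutrophil-like cells, with 435, 446, 203 and 101 CPM in KO1, KO2, WT1 and WT2, and ran from 25.1 to 250.1 CPM in monocyte-like cells.

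Cxcl1 had a wider reach into stroma and epithelium. Macrophage-like cells held 1161, 1618, 428, 755 and 1921 CPM, fibroblast-like cells 338, 1376, 858, 320.2 and 647 CPM and luminal progenitor-like cells 156, 645, 1327, 135 and 264 CPM. In KO3 the luminal progenitor-like cells were above the macrophage-like cells, and in the other 4 libraries they were below. With 70.9% of its UMIs, the fibroblast-like class was the main holder of Cxcl1 RNA. Cxcl5, a neutrophil attractant of epithelium and stroma, was low, with 9.46, 39.5, 10.6, 12.5 and 13.2 CPM in fibroblast-like cells and 0.490 to 4.25 CPM in hormone-sensing luminal-like cells. Ppbp, a product of platelets, had 40 UMIs in all.

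Cxcl15, known from lung epithelium, was an epithelial gene here. Hormone-sensing luminal-like cells held 508, 133, 96.0, 368 and 67.1 CPM and 93.6% of its UMIs, and their median was 46.9 times that of the next class. KO1 and WT1 were high and KO2, KO3 and WT2 low, so the difference ran across both genotype labels. Within the class the cluster led by Nrxn3 and Dmbt1 had 385 CPM, pooled, and the cluster led by Fgb and Upk3a 107 CPM. The first of these held 256, 31, 56, 580 and 19 cells in the 5 libraries and the second 6, 1194, 17, 7 and 754. KO1 and WT1 thus drew this class mainly from the first cluster, and KO2 and WT2 from the second. Cluster and library therefore cannot be told apart in the pooled Cxcl15 values. KO3 had more cells of the first cluster than of the second, and its Cxcl15 was low, at 96.0 CPM. The cluster led by Fos and Slc12a2 held 357 CPM of Cxcl1 and 175.5 CPM of Cxcl2, against 36.0 and 39.9 CPM of Cxcl1 in the other 2 clusters named here. Its cells numbered 0, 193, 67, 2 and 70 in the 5 libraries.

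**Figure D3:**
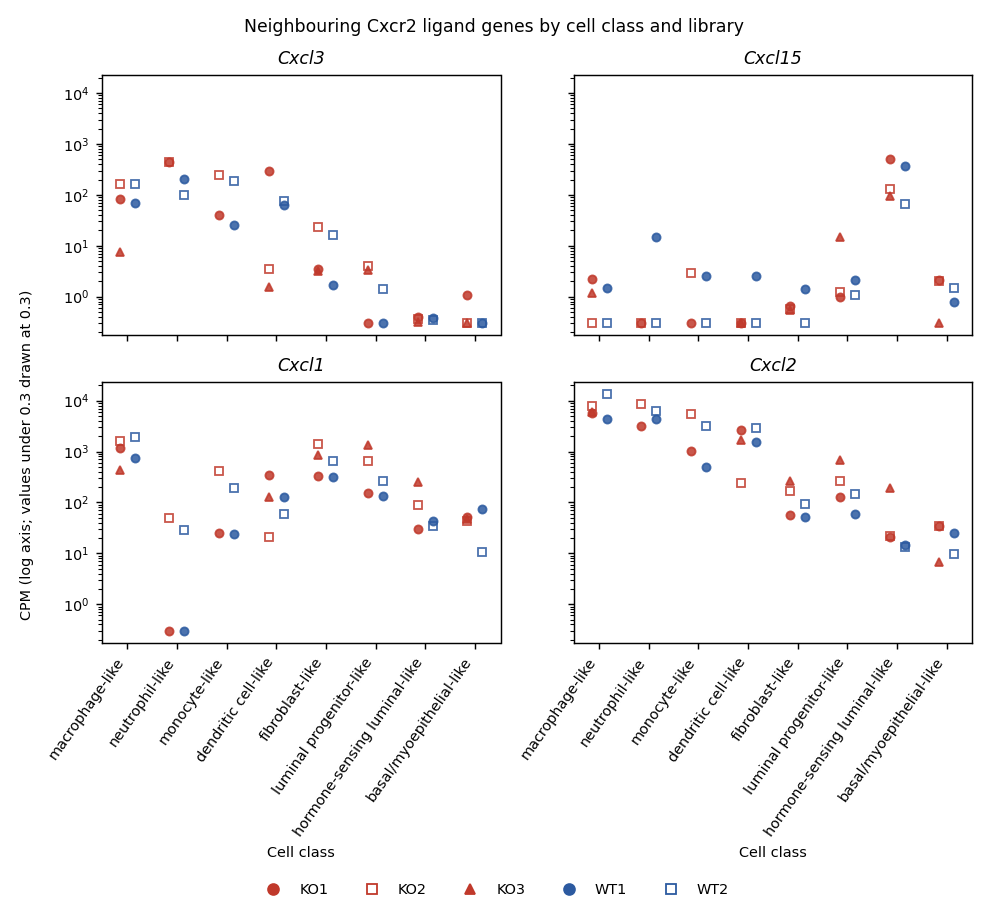
CPM (log axis, values under 0.3 drawn at 0.3) of Cxcl3, Cxcl15, Cxcl1 and Cxcl2 in 8 cell classes, 1 point per library with at least 20 cells of the class. Cxcl15 stands out in hormone-sensing luminal-like cells only, Cxcl3 and Cxcl2 are highest in myeloid classes, and Cxcl1 and Cxcl2 of KO3 are the highest points in both luminal classes.

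Homeostatic chemokines were stromal, vascular or basal. Cxcl12, the ligand of Cxcr4 that holds progenitors and lymphocytes in place, was highest in 3 classes. Blood endothelial-like cells gave 542, 74.9, 1426, 722 and 38.4 CPM, fibroblast-like cells 357, 224, 259, 457 and 248 CPM and basal/myoepithelial-like cells 194, 185, 185, 293 and 229 CPM. The endothelial values spread widely, with 22, 123, 178, 43 and 27 cells behind them, and overlap both other classes. Pericyte/vascular smooth muscle-like cells held 65.2 to 373 CPM. Fibroblast-like cells held 82.4% of its UMIs. Cxcl13, the B cell attractant of lymphoid tissue, was confined more tightly, with 54.1, 61.4, 59.9, 64.5 and 119.8 CPM in fibroblast-like cells and 92.9% of its UMIs there. Macrophage-like cells had 2.71 to 8.73 CPM of it.

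Cxcl14, an orphan chemokine of epithelia whose receptor is debated, was highest in basal/myoepithelial-like cells, with 2799.5, 1288, 1383, 2381 and 1282 CPM, 38.0% of its UMIs from 398 cells. Schwann/glial-like cells gave 102, 475 and 559 CPM in KO1, KO2 and WT2, and fibroblast-like cells 28.1 to 263 CPM. Every basal/myoepithelial-like value lay above every value of the other classes named here. Ccl19, a ligand of Ccr7, gave 15.5, 379.6, 39.7, 0 and 4.08 CPM in pericyte/vascular smooth muscle-like cells and 21.8, 9.96, 8.57, 55.1 and 8.88 CPM in fibroblast-like cells, which held 85.4% of its UMIs. The pericyte value of KO2 stood alone, and the 0 of WT1 allows up to 5.70 CPM, the level of 3 UMIs (a limit that covers counting error only). Without KO2 or without KO3, the fibroblast-like class was the highest for Ccl19.

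Ccl21a, the other ligand of Ccr7 and a marker of lymphatic vessels, was a gene of few cells. Its 901 UMIs came from 28 cells, 656 of them from 1 cell. In blood endothelial-like cells KO1 had 7 UMIs and KO3 844, all in cells with UMIs for at least 3 of 7 lymphatic markers. Such lymphatic-like cells numbered 1, 9, 14, 1 and 2 in the 5 libraries. In KO2, WT1 and WT2 the class had no Ccl21a UMI, which allows up to 2.22, 7.36 and 8.86 CPM, against 46.8 CPM in KO1 and 530.1 CPM in KO3.

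Fibroblast-like clusters differed in which members they held, and each high cluster mixed inflammatory with homeostatic ones. Medians over libraries are given for the 6 largest of 7 such clusters. The largest cluster, led by Pi16 and Akr1c18 with 4309 cells, held 860 CPM of Ccl2, 596 CPM of Cxcl1 and 122 CPM of Cxcl13. Pi16 marks fibroblasts around vessels. The cluster led by Gdf10 and Fmo2 with 1241 cells held the most Ccl7 and Cxcl12, at 1371 and 1126 CPM, and 286 CPM of Ccl8. Its Cxcl12 ran from 928 to 1643 CPM over libraries, above the 356 to 664 CPM of the cluster led by Apod and Thbs4 that came next.

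The Apod and Thbs4 cluster, 171 cells, held 1848 CPM of Ccl11, 1665 CPM of Ccl2, 1565 CPM of Cxcl1, 607 CPM of Cxcl2 and 184 CPM of Cxcl5, but 1.02 CPM of Cxcl13. The cluster led by Enpp2 and Mme, 1409 cells, held 493 CPM of Ccl11 and the lowest Ccl7, at 20.9 CPM. It was also the fibroblast-like cluster with the most Cx3cl1, 42.2 CPM with a range of 41.1 to 63.7 CPM, against 0.348 CPM in the Pi16 and Akr1c18 cluster, and its Cxcl13 was 0.404 CPM. The cluster led by Scg3 and Adam12, 1360 cells, held 332 CPM of Cxcl12 and 16.7 CPM of Cx3cl1. Cxcl13 was thus high in the clusters led by Pi16 or Akr1c18 and near 0 in the clusters led by Enpp2 and by Apod.

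**Figure D4:**
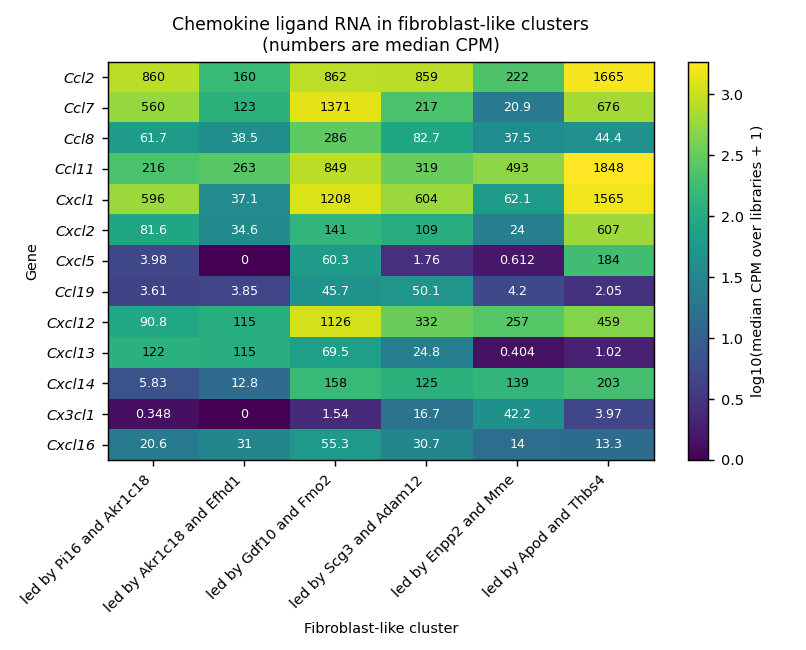
Median CPM over libraries (numbers and color, log10 of CPM + 1) of 13 chemokine ligand genes in the 6 largest fibroblast-like clusters. Cxcl12 and Ccl7 peak in the cluster led by Gdf10 and Fmo2, Ccl11, Ccl2 and Cxcl1 in the cluster led by Apod and Thbs4, Cxcl13 in the clusters led by Pi16 and Akr1c18 and by Akr1c18 and Efhd1, and Cx3cl1 in the cluster led by Enpp2 and Mme.

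Among epithelial and mucosal members, Cxcl17 was luminal. Cxcl17, known from mucosal epithelia, gave 45.9, 122, 76.9, 49.4 and 61.4 CPM in hormone-sensing luminal-like cells, which held 95.8% of its UMIs, and 2.92 to 21.9 CPM in luminal progenitor-like cells, without overlap. Ccl25, the gut and thymus ligand of Ccr9, differed little between classes: NK/innate lymphoid-like cells, the highest, gave 31.2, 14.5, 8.55, 15.4 and 25.5 CPM, monocyte-like cells 0 to 16.3 CPM and all cells together 6.35 to 9.49 CPM. It overlaps Elavl1, a gene on the opposite strand. Ccl27a, a skin ligand of Ccr10, gave 19.4, 28.5, 26.8, 23.8 and 30.8 CPM in basal/myoepithelial-like cells and 11.3 to 41.3 CPM in Schwann/glial-like cells, against 0.364 to 4.07 CPM in macrophage-like cells and 0 to 4.67 CPM in dendritic cell-like cells. Ccl27a overlaps Il11ra1 on the opposite strand. Whether the counting used strand is not given in the sources used here, so reads of these pairs may be mixed. Ccl28, the mucosal ligand of Ccr10 known from lactating gland, had 40 UMIs in 40 cells.

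Cx3cl1 and Cxcl16 are made as membrane proteins with a chemokine head, and Xcl1 is the ligand of Xcr1 on cross-presenting dendritic cells. Cx3cl1 gave 54.5, 74.7, 123, 81.1 and 69.1 CPM in luminal progenitor-like cells, 13.4 to 180.1 CPM in blood endothelial-like cells and 31.3 to 76.8 CPM in basal/myoepithelial-like cells. These 3 classes overlap, and in KO2 and WT2 the endothelial value was the highest. Cxcl16 gave 342, 554, 154, 549.8 and 386 CPM in macrophage-like cells and 108 to 349 CPM in dendritic cell-like cells. Xcl1 gave 568, 500.5, 371, 697 and 277 CPM in NK/innate lymphoid-like cells, which held 70.9% of its UMIs, and 30.1 to 278 CPM in T cell-like cells. The highest T cell-like value, of WT1, just passed the lowest NK/innate lymphoid-like value, of WT2.

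Of 23 receptor genes, 21 had at least 50 UMIs, and all of these but the 4 Ackr genes were highest in a leukocyte class. Cxcr2, the receptor of the chromosome 5 ligands, had a median of 1382 CPM in neutrophil-like cells, with a range of 718 to 1869.7 CPM, and 0.161 CPM in the next class. Ccr1 was also highest in neutrophil-like cells, at 1319 CPM, and reached 378 CPM in macrophage-like cells. Ccr2 gave 355 CPM in monocyte-like and 337 CPM in dendritic cell-like cells, with ranges of 224 to 511 CPM and 166 to 403 CPM that overlap. Macrophage-like and fibroblast-like cells, the holders of the Ccr2 ligands, had 91.7 and 0.325 CPM of it, and the unnamed cluster led by Il5 and Il2ra had 676 CPM.

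Lymphoid receptors followed known lineages. Ccr7 gave 741 CPM in B cell-like and 393 CPM in dendritic cell-like cells, Cxcr5 133 CPM and Ccr6 42.0 CPM in B cell-like cells, and Ccr10 11.9 CPM there. Cxcr6, the receptor of Cxcl16, gave 185 CPM, Cxcr3 54.0 CPM, Ccr4 25.2 CPM and Ccr3 2.86 CPM in T cell-like cells. T cell-like cells held 59.8% of the Ccr4 UMIs and 49.6% of the Ccr3 UMIs. The unnamed cluster led by Il5 and Il2ra had higher levels of both, with medians over 2 libraries of 191 CPM of Ccr4 and 35.7 CPM of Ccr3. Cxcr4 was highest in neutrophil-like cells at 742 CPM and Cx3cr1 in monocyte-like cells at 65.0 CPM. Dendritic cell-like cells led for Ccr9 at 39.1 CPM and Xcr1 at 6.90 CPM. Ccr8 and Cxcr1 had 25 and 13 UMIs.

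The atypical receptors, which take up chemokines without signaling through G proteins, were stromal, vascular or basal, and Ccrl2, a related receptor, was myeloid. Ackr3, a scavenger of Cxcl12, gave 469 CPM in fibroblast-like cells, which held 91.4% of its UMIs together with most of the Cxcl12. Ackr1, carried by venous endothelium, gave 147 CPM in blood endothelial-like cells, with a range of 2.95 to 250.4 CPM. Ackr2 gave 25.6 CPM in fibroblast-like cells and Ackr4, a scavenger of Ccl19, Ccl21a and Ccl25, 23.1 CPM in basal/myoepithelial-like cells. Ccrl2 gave 524 CPM in neutrophil-like cells.

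The 3 knockout-labelled libraries were then compared with the 2 WT libraries, for all cells and in 13 classes. UMIs were summed per library and tested with edgeR's quasi-likelihood test, adjusted over all genes tested in the class by the Benjamini-Hochberg method. No member passed the threshold of 0.05 in any of the 14 comparisons, in each of which 6 to 33 members were tested. The smallest edgeR adjusted p of a member was 0.994. The share of all genes called was 0.0% in every comparison but that of macrophage-like cells, where 1 gene of 8807, or 0.0114%, was called. DESeq2 called no member either. At an unadjusted p under 0.05, 2 of 33 members were counted in all cells, or 6.06% against 1.06% of all genes. By class the counts were 3 of 7 members in pericyte/vascular smooth muscle-like cells (3.99% of all genes there), 2 of 9 in blood endothelial-like cells (0.753%), and 1 of 9 in B cell-like (2.19%), 1 of 10 in basal/myoepithelial-like (0.762%), 1 of 22 in hormone-sensing luminal-like (0.792%) and 1 of 6 in neutrophil-like cells (1.09%). The count was 0 in the other 7 classes, where the share of all genes was 1.87% for macrophage-like, 2.26% for monocyte-like, 1.74% for dendritic cell-like, 2.16% for NK/innate lymphoid-like, 2.28% for T cell-like, 0.713% for fibroblast-like and 0.98% for luminal progenitor-like cells. Differences below are log2 of knockout-labelled over WT with the standard error (SE) of the fit, and every one of them failed the adjusted threshold in this fit. Since Frmd3 RNA did not separate the labels, each direction is a difference between labelled groups.

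Over all cells, Xcl1 had the smallest unadjusted p. It gave 6.15, 10.9, 6.59, 19.1 and 17.8 CPM, and the knockout-labelled libraries all lay below the WT ones, at -1.22 ± 0.33 on the log2 scale. NK/innate lymphoid-like cells, its main holders, made up 0.709%, 4.86%, 3.2%, 3.58% and 11.7% of the cells used, and their own Xcl1 levels, 277 to 697 CPM, overlapped between the labels. In a sum over the gland, fewer cells of a type cannot be told apart from less RNA per cell. Ccl21a gave 0.425, 0.475, 38.9, 0.0399 and 0 CPM, without overlap, and the fitted 9.41 ± 3.31 rests on the KO3 library: without it the value was 4.62. Ppbp, chosen here after its values were seen, had none either. That makes 3 of 33 members without overlap, where 7.73% of all genes had none.

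Among myeloid classes, macrophage-like cells had 18 members tested, 14 of them below 0, as were 48.9% of all genes, with a median of -0.40 against 0.01 for all genes. Ccl24 had the smallest unadjusted p and went the other way, higher by 0.64 ± 0.32. Its 279, 159, 229.6, 115 and 168 CPM overlap between the labels. Ccl8 came next at -0.59 ± 0.32, and its 3 knockout-labelled values, 806 to 1182 CPM, lay below the WT values of 1258 and 1780.4 CPM. Ccl12 and Ccl7 also did not overlap, named here after their values were seen, so 3 of 18 members had none, where 13% of all genes had none. The heat shock list moved with KO3 in this class too, with summed levels of 6666, 10030, 21653, 5296 and 6907 CPM, and its part in these differences was not tested.

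Monocyte-like cells had 11 members tested. Ccl6 and Ccl9 gave differences of -0.24 ± 0.18 and -0.24 ± 0.19, and without overlap, where 28.7% of all genes had no overlap. Only KO1 and KO2 stand on the knockout-labelled side. Without KO1, 5 members were called against the lone KO2, all of them higher: Ccl3, Ccl4, Cxcl1, Cxcl2 and Cxcl3, where 0.994% of all genes were called. In that fit KO2 is assumed to vary as the WT libraries do. Dendritic cell-like cells had no member without overlap among 15, where 14.4% of genes had none. Ccl4 gave 129, 362, 1886, 193 and 212 CPM there, a difference of 2.07 ± 1.20 that was 0.33 without KO3. The heat shock genes summed to 11355 CPM in KO3 and to 3052 to 3883 CPM elsewhere in this class, and their part was not tested. Ccl24 gave 154, 0, 17.1, 17.0 and 19.8 CPM, a difference of 1.84 ± 1.34 that turned to -0.61 without KO1.

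In neutrophil-like cells, Cxcl3 gave 435 and 446 CPM in KO1 and KO2 against 203 and 101 CPM in WT1 and WT2, a difference of 1.68 ± 0.47 and the only one of 6 members without overlap, where 23.5% of genes had none. These are sums over 27, 38, 26 and 92 cells. Ccl3 differed by 0.50 ± 0.46, with 199.9 and 301 CPM against 145 and 207 CPM, and overlapped.

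Among lymphoid classes, Ccl9 of NK/innate lymphoid-like cells gave 51.1, 38.1, 2.85, 70.6 and 62.1 CPM, lower in all 3 knockout-labelled libraries at -0.99 ± 0.50, the only one of 11 members without overlap, where 15.8% of genes had none. Ccl3 differed by 0.47 ± 0.32 there and overlapped, at 56.8, 144, 79.8, 65.5 and 79.6 CPM. Xcl1 of T cell-like cells gave 52.6, 129, 30.1, 278 and 112 CPM, a difference of -1.38 ± 0.59 with overlap, and Ccl4 23.9, 263, 30.1, 611 and 120 CPM, a difference of -1.75 ± 1.06. Ccl5 was the only one of 12 members without overlap in T cell-like cells, named after its values were seen, where 14.5% of genes had none: KO2 at 4805 CPM lay just under WT2 at 4978 CPM. The cluster led by Lef1 and Il7r, the lower one in Ccl5, held 303, 42, 12, 44 and 98 T cell-like cells. The whole class had 383, 97, 71, 279 and 352. The part of this makeup in the T cell-like differences was not tested.

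B cell-like cells gave the smallest unadjusted p of all classes, for Ccl4. It stood at 55.8 and 116 CPM in KO1 and KO2 and at 27.8 and 28.3 CPM in WT1 and WT2, a difference of 1.61 ± 0.41, the only one of 9 members without overlap, where 27.9% of genes had none. Without KO1, which leaves KO2 alone on its side, Ccl4 was called at an edgeR adjusted p of 0.00409. Cxcl2 came next with 48.3 and 11.0 CPM against 9.28 and 23.8 CPM, a difference of 0.79 ± 0.62 with overlap.

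Among stromal classes, fibroblast-like cells were the largest and had 24 members tested, with a median of -0.32 against 0.00 for all genes. Cxcl13 gave 54.1, 61.4, 59.9, 64.5 and 119.8 CPM, without overlap, at -0.69 ± 0.31. That value rests on WT2: without it the difference was -0.10. Ccl4 gave 7.98, 2.62, 2.28, 8.82 and 9.01 CPM, at -1.06 ± 0.55, and 0.93 with classes from a marker gate. Ccl3, named after its values were seen, had no overlap either, where 8.56% of genes had none. In macrophage-like cells of the same libraries Ccl4 stood at 2231 to 8343 CPM, so its fibroblast-like values are a small fraction of that, and the 8 pan-leukocyte markers, all present in this class, summed to 17.9, 8.42, 9.33, 27.1 and 25 CPM, also without overlap. The part of leukocyte RNA in these differences was not tested.

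In pericyte/vascular smooth muscle-like cells all 7 members tested lay above 0, as did 51.6% of all genes, with a median of 2.78 against 0.02 for all genes. Ccl7 gave 34.1, 771, 159, 11.4 and 20.4 CPM, a difference of 4.33 ± 1.53, and Ccl19 15.5, 379.6, 39.7, 0 and 4.08 CPM, a fitted difference of 6.43 ± 2.29. Cxcl12, named after its values were seen, had none either, which makes 3 members, where 20.6% of genes had none. The summed fibroblast markers in this class were 1596, 5387, 2939, 1063 and 1655 CPM, highest in KO2 and KO3 as Ccl7 was, and their part in these differences was not tested. The cells behind these sums numbered 95, 48, 24, 68 and 26. Without KO2 the Ccl7 difference was 2.40. Without WT2, Ccl5 was called, at -5.56, against WT1 alone, where 0.0287% of all genes were called. WT1 also had the highest pan-leukocyte sum in this class, with 29.4, 6.86, 0, 93.1 and 12.2 CPM over the 5 libraries, and its part in that call was not tested.

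Blood endothelial-like cells had no member without overlap among 9, where 11.6% of genes had none. Ccl2 gave 26.8, 77.8, 106, 17.2 and 32.5 CPM there, a difference of 1.61 ± 0.63, and Cxcl2 13.4, 55.6, 72.9, 17.2 and 14.8 CPM, a difference of 1.70 ± 0.68. In both, KO2 and KO3 were high. KO1 lay between the WT libraries for Ccl2 and below both of them for Cxcl2. In KO1 the level of 3 UMIs was 20.1 CPM, above its Cxcl2 value and not far below its Ccl2 value. The place of KO1 beside the WT libraries is therefore uncertain. The heat shock genes summed to 23563 CPM in KO3 and to 3590 to 6326 CPM elsewhere in this class. Their part in these differences was not tested. KO1, WT1 and WT2 had 22, 43 and 27 of these cells.

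In the epithelium, Cxcl2 and Cxcl1 of luminal progenitor-like cells had the smallest unadjusted p of 22 members. Cxcl2 gave 128, 262, 681, 57.9 and 149 CPM, a difference of 1.71 ± 0.78, and Cxcl1 156, 645, 1327, 135 and 264 CPM, a difference of 1.76 ± 0.88. Both overlapped, KO1 lying below WT2, and KO3 was the highest. Without KO3 they were 0.94 and 1.03. KO3 had 51 of these cells, and its summed heat shock genes stood at 20192 CPM against 5467 to 7802 CPM in the other 4 libraries. The part of that difference in the chemokine levels was not tested. Ccl11, named after its values were seen, was the only member without overlap, where 13.1% of genes had none.

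Hormone-sensing luminal-like cells had 22 members tested, 2 of them without overlap, where 11.0% of genes had none. Ccl5 gave 0.607, 4.26, 3.69, 5.94 and 24.4 CPM, a difference of -2.34 ± 0.80. WT2, the highest, was also the library with the most NK/innate lymphoid-like cells, 688, whose Ccl5 level was 18993 CPM. Without WT2 the difference was -1.07. Summed pan-leukocyte markers in this class were 63.1, 40.7, 57.5, 74.1 and 60.1 CPM. Cxcl2 gave 21.0, 22.1, 192, 14.3 and 13.5 CPM, a difference of 2.42 ± 1.09 that was 0.63 without KO3, where heat shock genes summed to 11908 CPM against 3140 to 4557 CPM elsewhere. For Cxcl2, KO1 and KO2 lay close above the WT libraries and KO3 far above them. The cluster led by Fos and Slc12a2, with 175.5 CPM of Cxcl2, held 0, 193, 67, 2 and 70 cells of this class. The whole class had 300, 1613, 174, 640 and 998. The parts of this makeup and of the heat shock genes in the Cxcl2 difference were not tested.

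Basal/myoepithelial-like cells had 10 members tested. Cx3cl1 gave 43.2, 44.7, 31.3, 76.8 and 65.4 CPM, lower in all 3 knockout-labelled libraries at -0.80 ± 0.33, and Cxcl12 gave 194, 185, 185, 293 and 229 CPM, a difference of -0.45 ± 0.28. These were the 2 members without overlap, where 10.5% of genes had none. They are sums over 131, 33, 35, 133 and 66 cells.

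**Figure D5:**
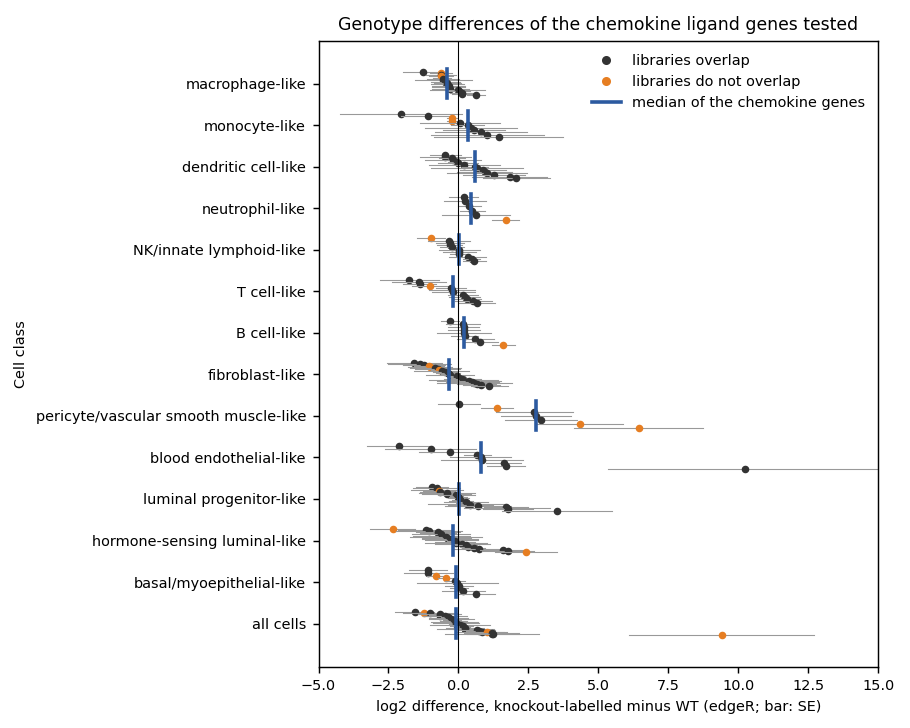
Log2 difference of knockout-labelled minus WT libraries (edgeR, bars are SE) for every chemokine ligand gene tested, by cell class, with orange points where the 2 groups of libraries do not overlap and a blue line at the median of the members. Most points lie within 2.5 of 0, those of pericyte/vascular smooth muscle-like cells lie at or above 0, and none passed the adjusted threshold.

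Whether the difference itself varied between classes was tested in 1 model per pair of classes, with a term for each library. Between macrophage-like and fibroblast-like cells, 0 of 25 members passed, as did 0.0% of all genes, and 2 had an unadjusted p under 0.05, where 2.2% of all genes did. Ccl9 had the smaller, with an effect higher by 0.96 ± 0.42 in macrophage-like cells, followed by Ccl27a at 2.20 ± 1.0. Ccl27a was low in macrophage-like cells, as given above, where 3 UMIs stand for 1.09 to 4.07 CPM by library. The macrophage-like side of the Ccl27a value thus rests on few UMIs. For luminal progenitor-like minus hormone-sensing luminal-like cells, 0 of 23 members passed, as did 0.0% of all genes, and none had an unadjusted p under 0.05, where 0.727% of all genes did. Ccl9 and Ccl5 came first there at -0.73 ± 0.53 and 2.01 ± 1.55.

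Genes around the chemokines were read in the same way. None of 18 chemokine receptors, 5 atypical receptors, 20 genes of NF-kB and its inflammatory inducers, 15 immediate-early genes or 10 heat shock genes was called in any of the 14 comparisons, as far as they were tested. In macrophage-like cells, 5 of 20 NF-kB genes lay above 0 and 15 below, and Il1b, an inducer of Cxcl1 and Cxcl2, gave 275, 212, 174, 537 and 291 CPM, without overlap, at -0.90 ± 0.32. In dendritic cell-like cells, Il1b gave 1015, 2091, 4230, 666 and 1072 CPM, a difference of 1.58 ± 0.62 in the other direction, and 16 of 19 NF-kB genes lay above 0, as did 17 of 18 in monocyte-like cells. The list had medians of 0.30 in dendritic cell-like and 0.22 in monocyte-like cells, against 0.02 and 0.01 for all genes. In fibroblast-like and in hormone-sensing luminal-like cells 9 of 19 lay above 0, in T cell-like cells 7 of 16 and in neutrophil-like cells 3 of 11. The counts were 9 of 13 in B cell-like, 8 of 14 in basal/myoepithelial-like and 7 of 13 in NK/innate lymphoid-like cells. Blood endothelial-like cells had 13 of 17 and pericyte/vascular smooth muscle-like cells 10 of 17. In luminal progenitor-like cells, 13 of 19 lay above 0. Icam1 gave 21.3, 27.4, 48.8, 19.3 and 9.35 CPM there, a difference of 0.99 ± 0.40, and Nfkbia, the NF-kB inhibitor that NF-kB itself induces, 404, 730, 1303, 326 and 488 CPM, a difference of 0.95 ± 0.46. KO3 was the highest library for both, as it was for Cxcl1 and Cxcl2 in these cells. All 10 heat shock genes lay above 0 over all cells and in macrophage-like, dendritic cell-like, NK/innate lymphoid-like and T cell-like cells. The same held in blood endothelial-like and basal/myoepithelial-like cells and in both luminal classes. In fibroblast-like and in pericyte/vascular smooth muscle-like cells 9 of 10 did, in B cell-like cells 8 and in monocyte-like cells 6. Over all cells the median of the heat shock list was 0.62, against 0.02 for all genes. Its sums there were 4246, 4720, 13296, 4325 and 4146 CPM, so KO3 stood apart and KO1 lay between the WT libraries.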

How the data were processed

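Single-cell 3′ UMI counts per gene and cell barcode were deposited by the authors as raw counts. Per the file headers, Cell Ranger 6.1.2 made the KO3 table and 6.0.2 the other 4, and the genome was mm10 per the submitters' processing notes. Which annotation release was used, and how strand and reads matching several genes were treated, is not given in the sources used here.

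From these counts, cells were filtered (at least 500 genes, at most 15% mitochondrial UMIs), simulated-doublet scores removed 1754 cells, and cells were clustered with leidenalg 0.10.2 on 30 principal components of 2000 variable genes without chemokine ligands and receptors. Clusters were named by at least 3 listed markers; the requirement that a marker list lie within 4-fold of its highest cluster was set after seeing the data. UMIs were summed per library and class with at least 20 cells, and tested with edgeR 4.0.16 (TMM, low-count filter, quasi-likelihood, Benjamini-Hochberg over all genes). Alternatives were DESeq2 1.42.0, its size factors, no filter, a marker gate, kept doublets, named classes only, a replicate block and leaving out each library. The labels do not say that replicate numbers pair the mice. All genes of the list with at least 50 UMIs are given by library, and per comparison the 2 with the smallest unadjusted p; others are marked. Members and lists were chosen with earlier results of these data known. Not every receptor gene counted is reported here by name. P-values measure the spread between libraries, 1 per mouse.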

Additional observations from a re-analysis of the deposited data

How the results depend on the processing

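No count of chemokine genes called moved from 0 with DESeq2, with its size factors, with classes from a marker gate, with doublets kept or over named classes only, the alternative chosen after seeing the data. The marker gate was fitted in 12 classes, not in pericyte/vascular smooth muscle-like cells and not over all cells. Without the filter on low counts, 1 member was called in B cell-like (Ccl4), 1 in dendritic cell-like (Ccl8), 4 in luminal progenitor-like (Ccl21a, Cxcl5, Cxcl1 and Cxcl2), 1 in pericyte/vascular smooth muscle-like (Ccl5) and 1 in T cell-like cells (Xcl1), where 0.167%, 0.073%, 0.411%, 0.422% and 0.152% of all genes were called. That setting also moved the median of all genes by 0.16 in blood endothelial-like and by -0.30 in neutrophil-like cells. Leaving out 1 library gave 0 to 1 in B cell-like cells, 0 to 5 in monocyte-like cells and 0 to 1 in pericyte/vascular smooth muscle-like cells; the calls came without KO1, KO1 and WT2, where 0.19%, 0.994% and 0.0287% of all genes were called. Where that leaves 1 knockout-labelled or WT library, it is assumed to vary like the others.

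With a replicate block, which pairs KO1 with WT1 and KO2 with WT2, 1 member was called in B cell-like (Ccl4), 1 in blood endothelial-like (Ccl21a), 1 in dendritic cell-like (Ccl22), 3 in hormone-sensing luminal-like (Cxcl15, Cxcl2 and Ccl5), 1 in luminal progenitor-like (Cxcl2), 1 in monocyte-like (Cxcl2) and 2 in pericyte/vascular smooth muscle-like cells (Ccl19 and Ccl7). Of all genes, 0.553%, 0.215%, 0.0565%, 0.564%, 0.735%, 0.0364% and 1.08% were called there. The labels do not say that a number is shared by more than name. The deviations of same-numbered libraries correlated at 0.25 and 0.48 over all cells and at 0.63 and 0.65 in hormone-sensing luminal-like cells. They correlated at 0.46 and 0.70 in fibroblast-like and at 0.063 and 0.28 in pericyte/vascular smooth muscle-like cells. With 2 WT libraries, the deviations of WT1 and WT2 are opposite by construction. Both values of a pair therefore use the same WT contrast and are not separate checks. The cause of the calls with the block was not tested.

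Directions turned for 6 of the differences named. Cxcl2 of B cell-like cells ran from -0.84 without KO1 to 1.88 without WT2, Ccl24 of dendritic cell-like cells from -0.61 without KO1 to 2.29 without KO3, Ccl3 of NK/innate lymphoid-like cells from -0.042 without KO2 to 0.71 without KO1, and the luminal interaction of Ccl5 from -0.31 without KO2 to 3.15 without WT1. Ccl4 of fibroblast-like cells was 0.93 with the marker gate, and Ccl9 of monocyte-like cells 0.13 with doublets kept. The cause was not tested. The highest class changed in at least 1 setting for Ccl1, Ccl6, Ccl9, Ccl19, Ccl25, Ccl27a, Cx3cl1 and Cxcl2: Cx3cl1 went to blood endothelial-like cells in 5 settings, Ccl1 to NK/innate lymphoid-like cells with the marker gate, and Cxcl2 to neutrophil-like cells when thinned to 2000 UMIs.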
